A study of Mus musculus with 16 samples.

Results

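The genes described here are the acute phase proteins and metallothioneins measured by short-read RNA-Seq in 8 mouse tissues. They are 10 of the 55385 genes in the count table (Mt1, Mt2, Saa1, Saa2, Saa3, Hp, Orm1, Orm2, Lcn2 and Fgb), chosen by their symbols through their gene identifiers, and all 10 were found. The samples were liver, white and brown adipose tissue, muscle, heart, kidney, spleen and lung of male C57BL/6 mice that either had free access to food (fed) or were fasted for 24 h (fasting). The mice had been acquired at 12 weeks of age. Equal parts of tissue from 3 mice were combined ahead of RNA extraction, and each such pool gave 1 library, 16 in all. No value therefore has a replicate error, and a test within a tissue sets 1 library against another and not fasting against feeding as conditions. In tissue RNA, a change in how many cells of a type were present cannot be told apart from a change in RNA per cell.

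Acute phase proteins are secreted proteins whose blood levels change during inflammation and stress. In the liver, their genes are induced by cytokines such as interleukin-6 through STAT3 and by C/EBP factors, and glucocorticoids strengthen many of these responses. Metallothioneins are small cysteine-rich proteins that bind zinc and copper, and their genes are induced by metals through the zinc sensor MTF1 and by glucocorticoids. Several of these genes are also used outside the liver, such as haptoglobin in adipose tissue and lipocalin 2 in neutrophils and epithelia.

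The promoters are shown because the 2 metallothionein genes lie side by side and moved together, and the Lcn2, Saa1, Saa2 and Fgb windows because these genes carry the largest other changes. RefSeq sequences (build GRCm38.p6) running from 250 bases before to 50 bases after the annotated start were present for 8 of the 10 genes, those other than Hp and Orm1. Capitals mark matches on either strand to the core of the metal response element (TGCACNC or TGCGCNC) in Mt1 and Mt2, and to the C/EBP motif (TTGCNNAA) in the other genes.
Mt1, chr8:94178839-94179138, plus strand: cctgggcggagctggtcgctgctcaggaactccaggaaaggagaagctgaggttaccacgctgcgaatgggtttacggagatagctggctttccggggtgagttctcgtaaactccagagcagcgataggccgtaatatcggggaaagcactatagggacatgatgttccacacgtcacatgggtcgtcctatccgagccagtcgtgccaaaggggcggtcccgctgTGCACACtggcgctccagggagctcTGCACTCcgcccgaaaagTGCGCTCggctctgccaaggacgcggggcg
Mt2, chr8:94172368-94172667, plus strand: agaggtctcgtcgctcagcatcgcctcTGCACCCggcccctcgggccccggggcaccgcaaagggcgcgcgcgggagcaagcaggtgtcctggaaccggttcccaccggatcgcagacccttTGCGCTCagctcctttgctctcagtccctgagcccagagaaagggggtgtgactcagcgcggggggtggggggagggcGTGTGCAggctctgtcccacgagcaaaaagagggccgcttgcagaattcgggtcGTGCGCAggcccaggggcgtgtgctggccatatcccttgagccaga
Lcn2, chr2:32387690-32387989, minus strand: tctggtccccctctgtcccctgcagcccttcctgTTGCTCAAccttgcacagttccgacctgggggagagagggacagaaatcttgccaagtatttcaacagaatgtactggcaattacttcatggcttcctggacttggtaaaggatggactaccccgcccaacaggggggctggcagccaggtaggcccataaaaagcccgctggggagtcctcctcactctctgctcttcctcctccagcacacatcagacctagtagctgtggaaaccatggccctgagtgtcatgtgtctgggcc
Saa1, chr7:46742931-46743230, minus strand: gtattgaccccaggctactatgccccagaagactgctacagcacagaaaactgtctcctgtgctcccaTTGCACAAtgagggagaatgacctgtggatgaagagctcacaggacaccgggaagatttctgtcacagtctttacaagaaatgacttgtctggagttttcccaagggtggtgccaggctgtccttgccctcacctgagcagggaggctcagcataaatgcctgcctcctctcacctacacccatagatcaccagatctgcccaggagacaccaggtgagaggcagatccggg
Saa2, chr7:46751583-46751882, plus strand: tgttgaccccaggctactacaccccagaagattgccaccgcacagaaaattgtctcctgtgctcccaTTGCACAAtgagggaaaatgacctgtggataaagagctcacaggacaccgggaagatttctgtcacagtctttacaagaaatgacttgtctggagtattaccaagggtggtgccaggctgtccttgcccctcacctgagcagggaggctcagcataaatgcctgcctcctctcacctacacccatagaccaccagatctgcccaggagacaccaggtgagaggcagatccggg
Fgb, chr3:83049814-83050113, minus strand: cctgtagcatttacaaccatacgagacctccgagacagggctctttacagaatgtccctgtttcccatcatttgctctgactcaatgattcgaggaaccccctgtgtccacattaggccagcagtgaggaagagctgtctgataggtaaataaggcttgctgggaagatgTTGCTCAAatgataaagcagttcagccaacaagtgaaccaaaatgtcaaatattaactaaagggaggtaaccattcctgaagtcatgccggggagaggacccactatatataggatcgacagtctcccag

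Mt1 held 3 matches to the metal response element core and Mt2 held 4, whereas 25.7% of all 32851 promoters of this length held at least 1, 1.97% at least 3 and 0.517% at least 4. The other 6 promoters of the group held none. The C/EBP motif was found in 7 of the 8 promoters, all but Mt1, against 10.8% of all promoters. A motif for NF-kappaB (GGGANNNNCC) was found only in Mt1, one for STAT (TTCNNNGAA) only in Fgb and a glucocorticoid receptor motif (TGTTCT) only in Orm2, against 20.7%, 8.3% and 19% of all promoters. These are matches of letters within a short window and not measured binding. The windows of Saa1 and Saa2, which are divergently transcribed neighbours 8809 bases apart on chromosome 7, were identical at 95.3% of aligned positions, and those of Mt1 and Mt2 at 49.4%.

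On the deposited table (build GRCm38), Mt2 lies at chr8:94172664-94173568 and Mt1 at chr8:94179082-94180327, both on the plus strand and 5513 bases apart. Saa3 (chr7:46711998-46715700), Saa1 (chr7:46740497-46742980) and Saa2 (chr7:46751790-46754313) form a cluster, and Orm1 (chr4:63344560-63348163) and Orm2 (chr4:63362449-63365878) form another. Hp is at chr8:109575128-109579172, Lcn2 at chr2:32384633-32388252 and Fgb at chr3:83040141-83049863. Some of these genes are near copies whose reads the counting could split or discard. The longest coding transcripts of Orm1 and Orm2 were identical at 91.0% of aligned positions, and 6.95% of their windows of 100 bases occurred in both. No such window was shared between Saa1 and Saa2 or between Mt1 and Mt2. Of the Mt2 windows, 27.4% also occurred, on the other strand, in the antisense gene Gm45774.

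The libraries held between 14245178 and 36069968 counts on genes, so that 3 counts, used here as the floor, corresponded to 0.0832 to 0.211 CPM, the count of a gene scaled to a common library total. Reads without molecular identifiers are not independent molecules, and intervals and floors cover counting error only. Marker genes of skeletal muscle, hepatocytes, adipocytes, brown adipocytes, cardiomyocytes, B cells, kidney tubule and lung epithelium each had their highest summed level in a library labelled with the matching tissue (B cells in spleen). Some libraries also carried markers of other cells that differed between fed and fasting, which touches results below. In fasting white adipose, 10 of 12 epithelial genes were higher than in fed, and their summed level was 379 CPM against 43.9 CPM. In heart, all 10 hepatocyte genes were higher in the fasting library, with sums of 103 CPM and 31.0 CPM. In liver, 11 of 12 pancreatic acinar genes were higher in fasting (284 CPM against 127 CPM in sum), and in spleen all 12 were lower (11.9 CPM against 653 CPM). In brown adipose all 10 skeletal muscle genes were lower (3104 to 1381 CPM). In lung all 7 cardiomyocyte genes (1209 to 603 CPM) and all 10 B cell genes (515 to 258 CPM) were lower, and in white adipose 2 of 10 B cell genes were (353 to 88.8 CPM in sum). The part of these cells in the changes below was not tested.

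A gene was called in a tissue, by the rule of the study, when its log2 fold change with a pseudocount of 0.01 CPM exceeded 0.5 in size and Fisher's exact test (two-sided) gave an unadjusted p under 0.01. Over the 80 combinations of 10 genes and 8 tissues, 32 were called, 16 higher and 16 lower in fasting. The metallothioneins and Lcn2 accounted for 15 of the 16 higher ones, and Saa1, Saa2, Saa3, Hp, Orm1, Orm2 and Fgb for all 16 lower ones. In 56 of the 80 combinations at least 1 of the 2 libraries held 10 counts or more, and 5 had no count in either library.

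**Figure D1:**
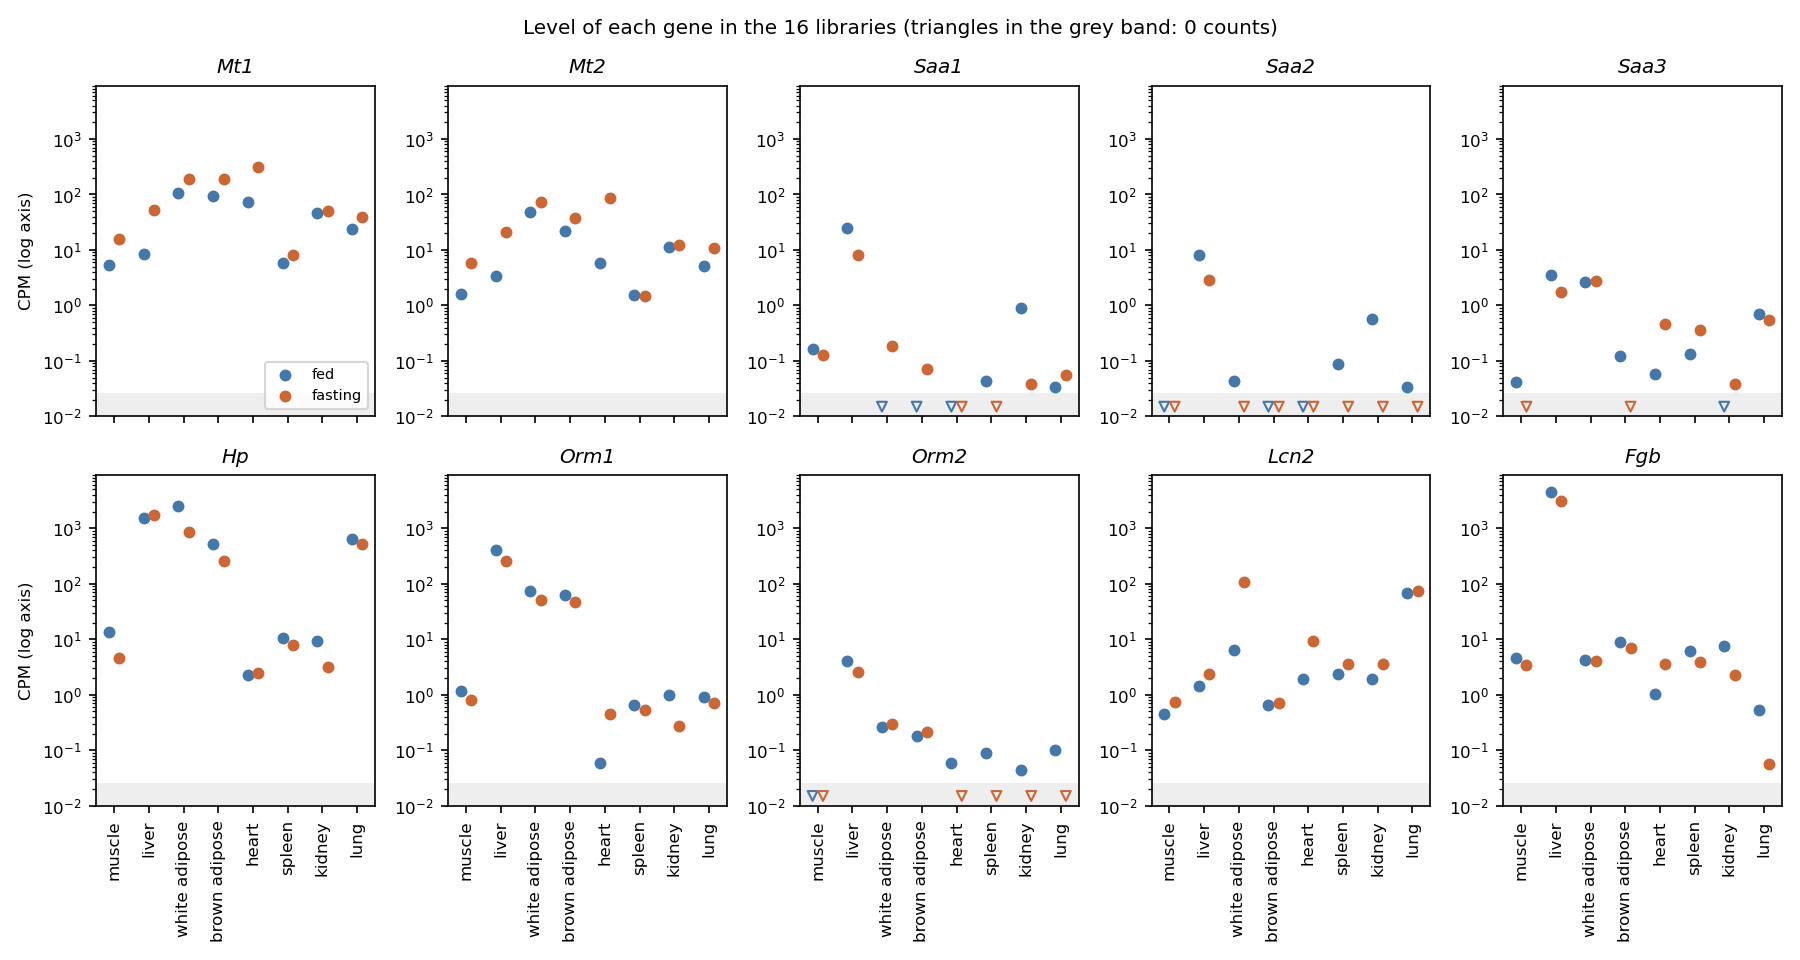
Level of each of the 10 genes in CPM (log axis) in the fed (blue) and fasting (orange) library of each tissue, 1 point per library. Triangles in the grey band are libraries with 0 counts. Mt1 is higher in the fasting library of all 8 tissues, Hp is highest in fed white adipose at 2542 CPM, and Fgb in fed liver at 4451 CPM.

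By tissue, 8 of the 10 genes were called in liver, where 14% of the 25048 genes with a count were called. Of these 8, 2 were higher and 6 lower, against 4.46% and 9.52% of all genes. With the scaling factors of edgeR or DESeq2, the lower calls of Fgb, Orm1 and Orm2 were lost and Lcn2 was called higher, which left 3 higher and 3 lower. In kidney 6 were called (background 6.69%), 1 higher (2.77%) and 5 lower (3.93%), but only 3 of them reached 1 CPM in either library. White adipose had 4 (background 19.1%), 3 higher (13.2%) and 1 lower (5.84%). With the scaling factors of edgeR or DESeq2, the Mt2 call there was lost and Orm1 was called lower. Heart had 4 (10.1%), all higher (4.33%) and none lower (5.8%). Muscle had 3 (13.8%), 2 higher (4.42%) and 1 lower (9.39%). Brown adipose had 3 (13%), 2 higher (5.39%) and 1 lower (7.58%). Lung had 3 (9.18%), 2 higher (2.68%) and 1 lower (6.49%). Spleen had 1 (3.93%), 0 higher (2.31%) and 1 lower (1.62%). Among genes at 1 CPM or more in at least 1 of the 2 libraries, the called shares were larger. They were 23.2% in liver, 10.7% in kidney, 29.1% in white adipose, 16.7% in heart and 24.2% in muscle. In brown adipose, lung and spleen they were 20.9%, 14.3% and 5.95%. The fraction of all counts that the 10 genes took together was 0.644% in fed and 0.518% in fasting liver, and 0.278% in fed and 0.129% in fasting white adipose. It was under 0.08% in every library of the other 6 tissues.

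**Figure D2:**
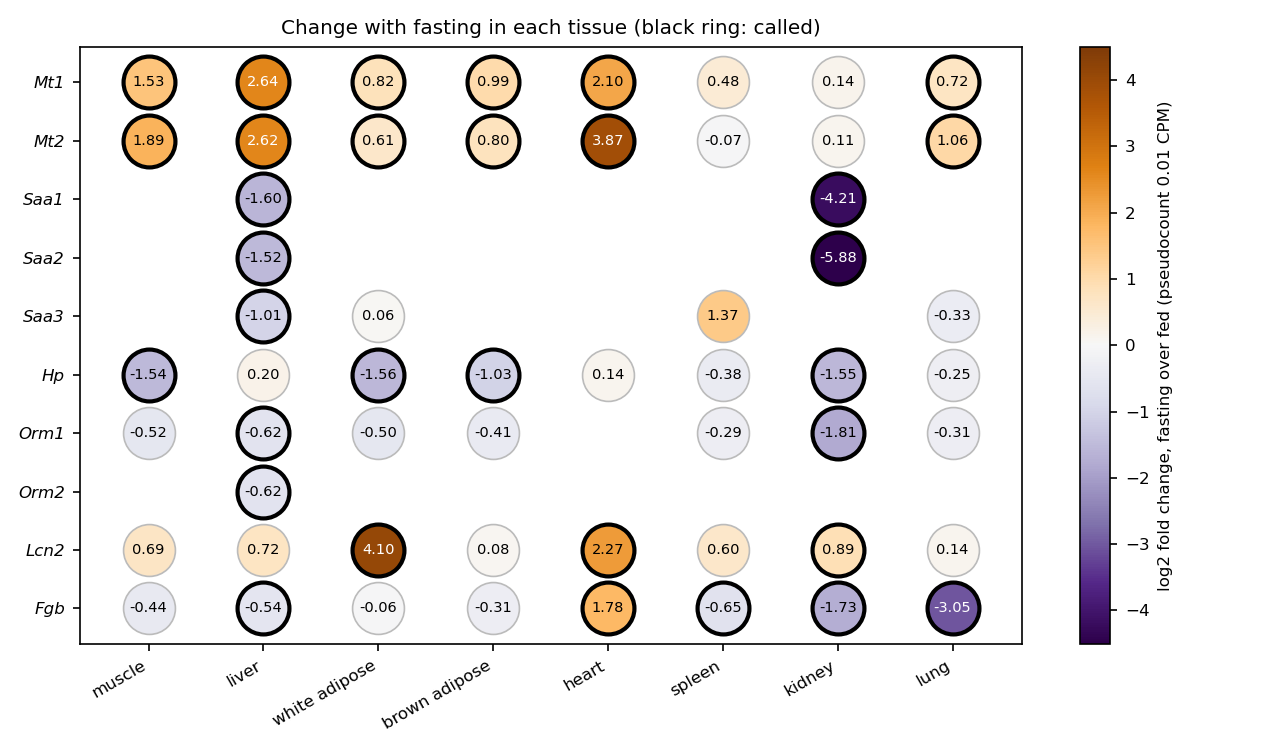
Log2 fold change of fasting over fed (pseudocount 0.01 CPM) for each gene (rows) and tissue (columns). Only combinations with at least 10 counts in 1 of the 2 libraries are drawn, 56 in all, and a black ring marks those called. Mt1 and Mt2 are called higher in 6 tissues each, and the called changes of Saa1, Saa2, Saa3, Hp, Orm1 and Orm2 are all lower in fasting.

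Mt1, the first of the 2 widely expressed metallothioneins, was higher after fasting in all 8 tissues and was called in 6 of them. In fed libraries it was at 5.36 CPM in muscle, 8.42 in liver, 106 in white adipose, 94.4 in brown adipose, 71.9 in heart, 5.78 in spleen, 45.5 in kidney and 23.4 in lung. In fasting libraries it was at 15.5 CPM in muscle, 52.4 in liver, 187 in white adipose, 187 in brown adipose, 308 in heart, 8.05 in spleen, 50.2 in kidney and 38.7 in lung. The rise was largest in liver, at 6.22-fold (95% exact counting interval 5.35 to 7.27, Fisher's exact test p = 3.39e-184), followed by heart at 4.29-fold (4.03 to 4.57) and muscle at 2.88-fold (2.37 to 3.53). White adipose (1.77-fold), brown adipose (1.99-fold) and lung (1.65-fold) were called too. Spleen (1.39-fold) and kidney (1.10-fold) did not reach the fold that a call required. The levels of fed and fasting libraries overlapped across tissues, and fed kidney, at 45.5 CPM, was close to fasting liver.

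Across tissues, a single edgeR quasi-likelihood model of tissue and treatment was fitted to the 16 libraries, which left 7 residual degrees of freedom. Mt1 was the only one of the 10 genes that was called, in a fit that called 1.87% of 23580 genes, 1.03% higher and 0.84% lower. Its log2 fold change was 1.20 (SE 0.26, adjusted p = 0.0458 by Benjamini-Hochberg). All 8 tissues share 1 fed and 1 fasting pool of mice, so that they do not stand for separate animals. The call was at the edge of the threshold: it was lost when muscle, liver, brown adipose, heart or lung was left out, with adjusted p between 0.0519 and 0.113, and held without white adipose, spleen or kidney, while the log2 fold change stayed between 0.99 and 1.36. Of the other 9 genes, 5 (Mt2, Lcn2, Hp, Orm1 and Saa2) had an unadjusted p under 0.05 in this fit. DESeq2's Wald test called Mt1, Mt2 and Lcn2 higher and Hp and Orm1 lower.

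Mt2, the neighbour of Mt1 and similar in function, was called higher in the same 6 tissues. Its fed levels were 1.58 CPM in muscle, 3.39 in liver, 47.6 in white adipose, 21.7 in brown adipose, 5.81 in heart, 1.55 in spleen, 11.2 in kidney and 5.12 in lung. After fasting it was at 5.88 CPM in muscle, 20.9 in liver, 72.4 in white adipose, 37.8 in brown adipose, 85.1 in heart, 1.47 in spleen, 12.1 in kidney and 10.7 in lung. The change in heart, from 100 to 1298 counts, was 14.6-fold (95% exact counting interval 11.9 to 18.1, Fisher's exact test p = 5.02e-299). Liver followed with 6.16-fold (4.85 to 7.92) and muscle with 3.73-fold (2.62 to 5.44). The white adipose call (log2 fold change 0.61) was lost with the scaling factors of edgeR (0.50) or DESeq2 (0.49). Spleen and kidney stood at 0.953-fold and 1.08-fold, with counting intervals that included 1. In the joint fit Mt2 had a log2 fold change of 1.38 (SE 0.41, edgeR adjusted p = 0.105).

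The 2 metallothioneins kept a similar proportion to each other in most libraries but not in heart. The ratio of Mt1 to Mt2 counts was 12.4 in fed heart and 3.63 in fasting heart. In the other 14 libraries it lay between 2.22 and 5.46. In liver it was 2.49 in fed and 2.51 in fasting, although both genes rose about 6-fold. Per kilobase of gene length, fasting heart was the library with the highest level of both genes, at 248 RPKM (CPM per kilobase) for Mt1 and 145 RPKM for Mt2. Ordered by the mean RPKM of the fed and the fasting library, Mt1 ran from heart (153) through white adipose (118), brown adipose (113), kidney (38.4), lung (24.9), liver (24.4) and muscle (8.35) to spleen (5.55). The first 3 tissues overlapped in their fed to fasting range, as did lung with liver, liver with muscle, and muscle with spleen.

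Beside these changes, the acinar genes in liver, the hepatocyte genes in heart and the epithelial genes in white adipose were higher in the fasting library. Summed adipocyte genes were higher in lung (312 to 494 CPM, 6 of 10 called higher and 1 lower) and heart (628 to 1552 CPM, 3 higher and 1 lower). The lipase Pnpla2 was among the highest of them in both fed libraries. The part of these cells in the metallothionein changes was not tested. Fasting effects on Mt1 and Mt2 did not pass the test of a difference between any 1 tissue and the other 7 (edgeR interaction, 6 residual degrees of freedom), which called 4.18% of 24930 genes in white adipose, 0.197% in liver, 0.00802% in brown adipose, 0.0321% in spleen and 0% in muscle, heart, kidney and lung. The closest were Mt1 in liver (log2 difference 1.77, SE 0.60, adjusted p = 0.466) and Mt2 in heart (2.89, SE 0.84, unadjusted p = 0.00639, adjusted p = 1).

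Genes that handle metals were set beside the metallothioneins, from a list of 18 with transporters, the zinc sensor Mtf1 and glutathione enzymes. In liver, where 23.2% of all genes at 1 CPM were called, 0 of 15 list genes rose and 7 fell, a count that came to 3 with the scaling factors of edgeR or DESeq2. The largest falls were those of the manganese exporter Slc30a10 (80.6 to 28.1 CPM) and the glutathione synthesis enzyme Gclc (530 to 203 CPM). In white adipose, 7 of 16 rose and 0 fell, where 29.1% of all genes at 1 CPM were called. These included Mt3, a metallothionein best known from brain (0.386 to 12.3 CPM), the zinc transporter Slc30a2 (1.42 to 21.2 CPM), the zinc exporter Slc30a1 (31.4 to 51.9 CPM) and the importer Slc39a14 (27.6 to 43.7 CPM). The epithelial genes rose in that library too, and their part in these changes was not tested. Slc30a1 was not called in the other 7 tissues. Slc39a14 was called higher in muscle (16.7 to 27.9 CPM) and brown adipose (25.3 to 36.2 CPM) as well. Mtf1 was between 16.8 and 42.0 CPM in all libraries and was called only in muscle, where it was lower (24.9 to 16.8 CPM). The median log2 fold change of the list was -0.48 in liver and 0.44 in white adipose, against -0.13 and 0.07 over all genes at 1 CPM. Across tissues, edgeR called 0 of 17 list genes, DESeq2 called 0, and 2 had an unadjusted p under 0.05.

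The serum amyloid A genes encode small apolipoproteins that associate with high-density lipoprotein in the acute phase. All 3 fell in liver. Saa1 went from 564 to 201 counts (24.5 to 8.05 CPM), 3.04-fold lower (2.58 to 3.59, Fisher's exact test p = 2.51e-47). Saa2 went from 188 to 71 counts (8.16 to 2.84 CPM), 2.87-fold lower (2.17 to 3.83). Saa3 went from 80 to 43 counts (3.47 to 1.72 CPM), 2.02-fold lower (1.38 to 2.99). Fed liver was therefore above fasting liver for each of the 3 genes, and for Saa1 and Saa2 liver was the highest tissue by a factor of 35.0 and 19.0 over kidney, the next one. Saa4, a constitutively expressed liver paralog that is not one of the 10 genes, fell in liver as well (221 to 82.2 CPM).

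Kidney was the second tissue in which Saa1 and Saa2 were called, on few counts. Of 10 hepatocyte genes, 6 were called lower in fasting kidney and 1 higher, where 6.69% of all genes with a count were called. Albumin (Alb) went from 723 to 195 counts (32.2 to 7.57 CPM). The sum of the 10 genes rose from 2663 to 3135 CPM, with Cyp2e1 and Apob the highest in the fed library. The part of hepatocyte RNA in the lower levels of Saa1, Saa2, Hp, Orm1 and Fgb in kidney was not tested. Saa1 had 20 counts in fed and 1 in fasting kidney, a ratio of 23.0 (exact counting interval 3.67 to 952). Saa2 had 13 counts in fed and 0 in fasting kidney, at least 4.98-fold lower against the floor of 3 counts per library, while the exact counting interval of the ratio starts at 3.50. Neither gene reached 1 CPM there. Saa3, which is expressed by adipose tissue and macrophages, was at 2.62 CPM in fed and 2.73 CPM in fasting white adipose, a fold of 1.04 (0.735 to 1.49). In lung it was at 0.699 and 0.554 CPM. In muscle, brown adipose, heart and spleen, none of the 3 genes had more than 10 counts in a library. Levels so low cannot show moderate changes at this depth.

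Hp encodes haptoglobin, which binds free haemoglobin in plasma. Its highest level per length was in fed white adipose (1583 RPKM), above fed liver (954 RPKM). Its fed levels were 13.5 CPM in muscle, 1532 in liver, 2542 in white adipose, 530 in brown adipose, 2.27 in heart, 10.4 in spleen, 9.22 in kidney and 629 in lung. Its fasting levels were 4.62 CPM in muscle, 1763 in liver, 864 in white adipose, 260 in brown adipose, 2.49 in heart, 8.01 in spleen, 3.14 in kidney and 529 in lung. The fall in white adipose was 2.94-fold (2.90 to 2.99) and that in brown adipose 2.04-fold (1.96 to 2.12). Muscle (2.92-fold lower) and kidney (2.93-fold lower) were called as well. Liver stood at 1.15-fold of fed and lung at 0.840-fold, neither of which reached the fold for a call. White adipose was thus the tissue with the highest Hp level when fed, and liver when fasting.

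In muscle, where Hp was called lower, 6 of 10 adipocyte genes were also lower in fasting and 1, the lipase Pnpla2, was higher (87.9 to 239 CPM). Their summed level went from 2212 to 1717 CPM. Car3 (1889 to 1265 CPM) made up most of it, and Fabp4 (110 to 132 CPM, not called) was the next highest in the fed library. The fall of Car3 was larger than that of the sum, so the other genes together were higher in fasting. In white adipose, 4 of the 10 adipocyte genes were lower and 1 higher, and their sum went from 40654 to 32558 CPM, 0.801 of the fed level, while Hp stood at 0.340 of its fed level. In brown adipose 3 were lower and 1 higher, and their sum was at 0.916 of the fed level while Hp was at 0.490. In kidney, where 4 adipocyte genes were higher and 3 lower and their sum went from 271 to 357 CPM, Hp per 100 counts of Alb was 28.6 in fed and 41.5 in fasting. Of all genes with a count, 13.8% were called in muscle, 19.1% in white adipose, 13% in brown adipose and 6.69% in kidney. The part of these cells in the changes of Hp was not tested. Over all tissues Hp had a log2 fold change of -0.73 (SE 0.24, edgeR adjusted p = 0.140, unadjusted p = 0.0116), and -0.49 without both adipose tissues (adjusted p = 0.385). The test of white adipose against the other 7 tissues gave a log2 difference of -1.10 (SE 0.58, adjusted p = 0.488).

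The orosomucoids are plasma proteins that carry small lipophilic molecules. Orm1 fell in liver from 9193 to 6497 counts (399 to 260 CPM), 1.53-fold lower (1.49 to 1.58, Fisher's exact test p = 5.73e-156). Orm2 fell by the same factor, 1.53-fold (1.10 to 2.14), on 92 and 65 counts, with p = 0.00830 by Fisher's exact test. Both log2 fold changes (-0.62 and -0.62) came to -0.49 with edgeR's or DESeq2's scaling factors, below the size for a call. The same scalings took the Fgb change in liver from -0.54 to -0.41, since they moved all liver log2 fold changes up by 0.12. In white adipose Orm1 went from 73.3 to 51.9 CPM, with a log2 fold change of -0.50 that fell just short of the threshold. It was called there with either scaling (-0.60 and -0.61) and with Orm1, Orm2 and Orm3 summed (-0.63). Brown adipose went from 63.4 to 47.6 CPM and was not called. Kidney, with 22 and 7 counts, was called lower for Orm1, a call that was lost with an adjusted p or with the 3 genes summed. Orm3, a paralog that is not one of the 10 genes, was mostly an adipose transcript here and fell in white adipose from 12.3 to 3.24 CPM. Outside liver, Orm2 never exceeded 8 counts in a library.

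Lcn2 encodes lipocalin 2, which sequesters iron-laden bacterial siderophores and is made by neutrophils, epithelia and adipose tissue. It was higher in fasting in all 8 tissues and was called in 3. Its fed levels were 0.457 CPM in muscle, 1.43 in liver, 6.27 in white adipose, 0.662 in brown adipose, 1.92 in heart, 2.34 in spleen, 1.92 in kidney and 67.3 in lung. Its fasting levels were 0.743 CPM in muscle, 2.36 in liver, 108 in white adipose, 0.702 in brown adipose, 9.31 in heart, 3.56 in spleen, 3.57 in kidney and 74.2 in lung. Lung was the highest tissue when fed, and white adipose after fasting. White adipose rose from 146 to 2955 counts, 17.2-fold (14.6 to 20.4). Heart rose 4.86-fold (3.30 to 7.32, Fisher's exact test p = 2.10e-20) and kidney 1.86-fold (1.28 to 2.74, p = 7.08e-04 by the same exact test). Brown adipose, on 11 and 10 counts, stood at 1.06-fold (0.404 to 2.75).

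The fasting effect on Lcn2 in white adipose differed from that in the other 7 tissues by 3.13 on the log2 scale (SE 0.53, edgeR interaction adjusted p = 4.33e-03), where 4.18% of 24930 genes passed this test. The term fits the white adipose pair exactly, so the SE comes from the other 7 tissues and the test assumes that white adipose varies like them. It was the only one of 80 combinations of gene and tissue that passed. At an unadjusted p under 0.05 there were 8. Without white adipose, the joint log2 fold change of Lcn2 went from 1.32 (adjusted p = 0.126) to 0.86 (adjusted p = 0.0803, edgeR).

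Lcn2 did not move alone in the white adipose library. Of 12 genes typical of epithelia, a list written after the values were seen, 10 were called higher there and 0 lower. Epcam, an adhesion molecule of epithelial cells, went from 27 to 1637 counts (1.16 to 59.7 CPM) and the epithelial cadherin Cdh1 from 18 to 864 counts (0.773 to 31.5 CPM). The keratin Krt8 went from 8.54 to 106 CPM and the keratin Krt18 from 4.72 to 67.1 CPM. Lrp2, an endocytic receptor of absorptive epithelia, went from 34.9 to 710 CPM. Krt7 and Cldn4 of the list were not called. Of all genes with a count, 19.1% were called in this tissue. Of the neutrophil genes 0 of 12 and of the macrophage genes 1 of 10 were called. The neutrophil sum was 26.7 CPM in fed and 23.2 CPM in fasting, with 3 and 4 of its genes at 0, and the macrophage sum 1107 and 1124 CPM. The mesothelial genes, which include Krt8 and Krt18, went from 364 to 578 CPM in sum, with 3 of 10 called higher and 0 lower. The kidney tubule genes, which include Lrp2, went from 70.6 to 750 CPM in sum, with 2 of 8 called higher and 0 lower. A list of 13 genes of epididymal epithelium, also written afterwards, fell from 14.0 to 1.75 CPM, with 7 of its genes at 0 after fasting. The part of epithelial RNA in the rise of Lcn2 was not tested.

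**Figure D3:**
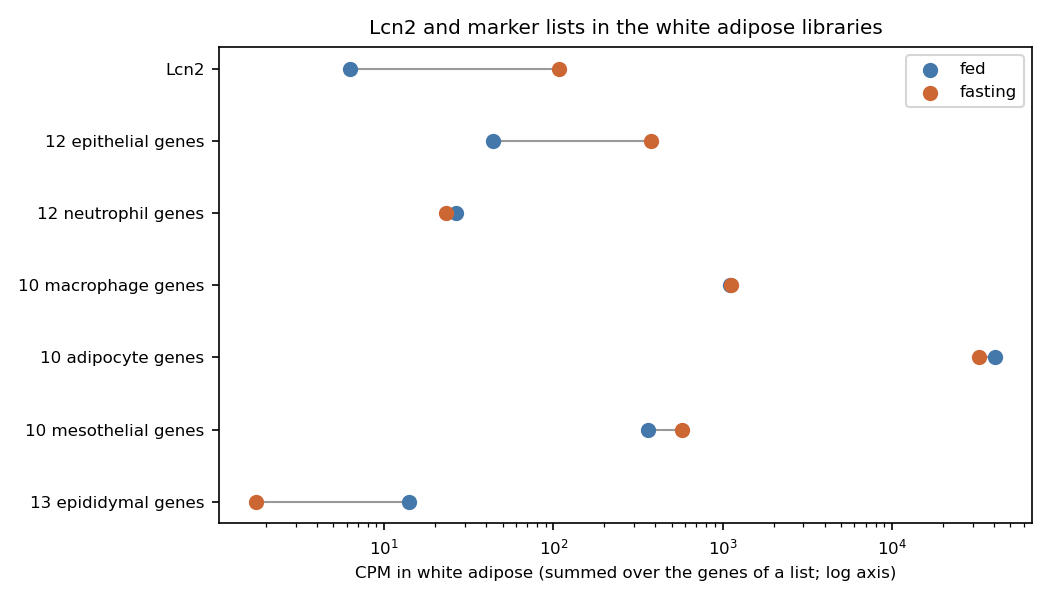
Level in CPM (log axis) of Lcn2 and summed levels of marker lists in the fed (blue) and fasting (orange) white adipose library. Lcn2 goes from 6.27 to 108 CPM and the 12 epithelial genes from 43.9 to 379 CPM, while the neutrophil and macrophage lists lie close together.

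In the other 2 tissues in which Lcn2 was called, the neutrophil genes did not rise. Their sum went from 7.67 to 5.37 CPM in heart and from 3.16 to 2.52 CPM in kidney, with 0 of 12 called in either. The epithelial genes went from 4.65 to 7.86 CPM in heart, with 1 of 12 called higher, and from 604 to 656 CPM in kidney with 0 called. The adipocyte genes went from 628 to 1552 CPM in heart, with 3 of 10 called higher and 1 lower. Fabp4 and Pnpla2 were the highest of them in fed heart, and 1 gene was at 0 in fed and 2 in fasting. The part of adipocyte RNA in the rise of Lcn2 there was not tested.

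Fgb encodes the beta chain of fibrinogen, the precursor of fibrin in blood clots, and is made with the alpha chain (Fga) and gamma chain (Fgg) by hepatocytes. In liver Fgb went from 102518 to 76491 counts (4451 to 3064 CPM), 1.45-fold lower (1.44 to 1.47). Fga (4991 to 3216 CPM) and Fgg (3521 to 2188 CPM) were lower too. Liver held 473 times the mean RPKM of the next tissue. Elsewhere Fgb was at 4.65 CPM in fed and 3.43 in fasting muscle, 4.21 and 4.05 in white adipose, 8.79 and 7.09 in brown adipose, 1.05 and 3.60 in heart, 6.05 and 3.84 in spleen, 7.62 and 2.29 in kidney, and 0.532 and 0.0554 in lung. It was called higher in heart (18 and 55 counts, 3.45-fold, 1.99 to 6.24) and lower in spleen (1.57-fold), kidney (3.33-fold) and lung (16 and 2 counts, a ratio of 9.60 with an exact counting interval of 2.26 to 86.1).

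These small levels kept a like proportion to albumin, a major hepatocyte transcript, in every tissue but kidney. Per 100 counts of Alb, Fgb had 6.98 counts in fed and 5.88 in fasting liver, 7.47 and 7.01 in heart, 6.71 and 5.84 in spleen, 6.99 and 4.76 in lung, and between 5.75 and 8.36 in muscle and both adipose tissues. Alb itself rose in heart from 14.0 to 51.4 CPM and fell in lung from 7.62 to 1.16 CPM. In heart, 14 of 18 other acute phase genes at 1 CPM rose and 0 fell, and 6 of 8 negative acute phase genes, which include Alb and transthyretin (Ttr, 0.929 to 4.39 CPM), rose as well, where 16.7% of all genes at 1 CPM were called. The part of hepatocyte RNA in these changes was not tested. The difference between heart and the other 7 tissues for Fgb was 2.50 on the log2 scale (SE 0.74, edgeR unadjusted p = 0.00722), with an adjusted p of 1.

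Kidney was the exception, with 23.7 Fgb counts per 100 Alb counts in fed and 30.3 in fasting. There Fga went from 718 to 2687 counts (32.0 to 104 CPM) and Fgg from 281 to 602 counts (12.5 to 23.4 CPM), while Fgb fell from 171 to 59 counts. These 2 chains were named here after their values were seen. In RPKM, Fga stood at 5.31 times Fgb in fed kidney and 57.6 times in fasting kidney, and Fgg at 2.99 and 18.6 times. In the 14 libraries of the other tissues the Fga ratio was between 1.11 and 3.80, with the highest value in fasting lung, where Fgb had 2 counts. The Fgg ratio in lung was 4.10 in fed and 19.1 in fasting, on 36 and 21 Fgg counts. In kidney the called changes of the 3 chains thus had different directions, and in liver, heart and lung the same. In spleen Fgb and Fgg were called lower, and in muscle Fga. In brown adipose (Fgb 8.79 to 7.09, Fga 8.79 to 10.2 and Fgg 4.82 to 6.74 CPM) and white adipose none of the 3 was called.

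**Figure D4:**
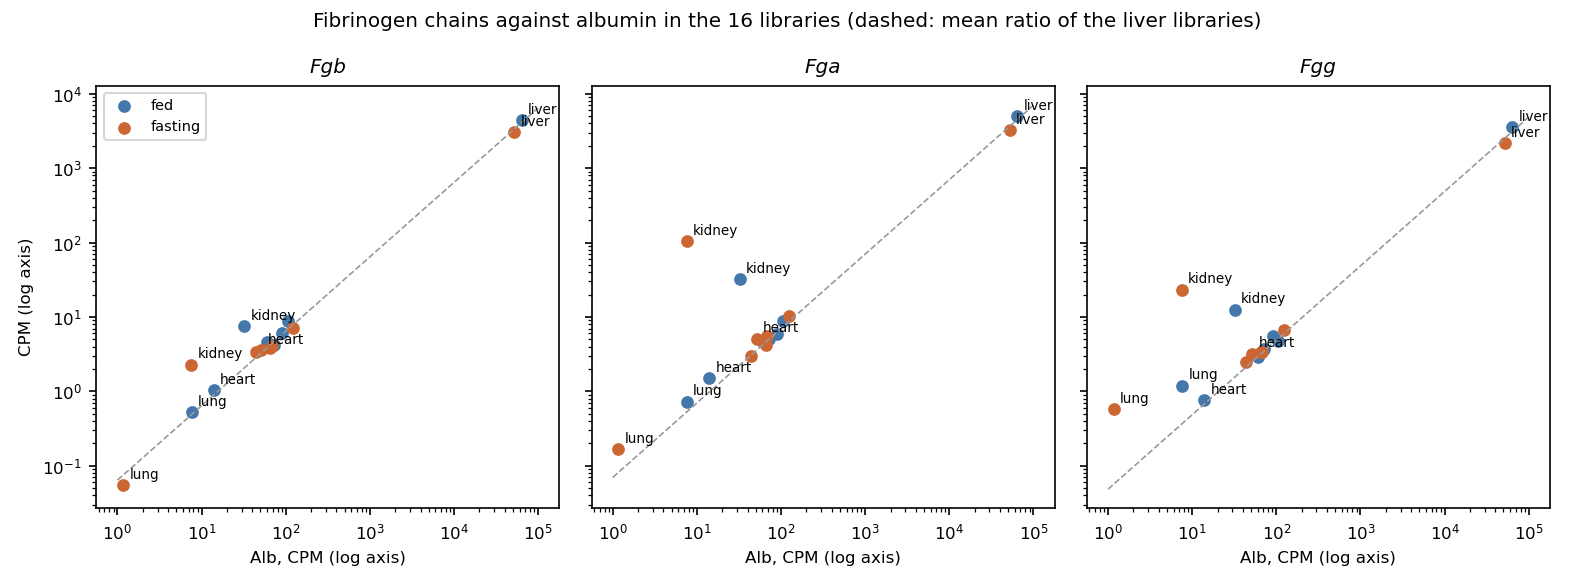
Levels of the fibrinogen chains Fgb, Fga and Fgg against albumin (Alb) in the 16 libraries, both in CPM on log axes, with the mean ratio of the 2 liver libraries as a dashed line. The heart libraries lie near the line, and the kidney libraries lie above it, farthest for Fga, which reached 104 CPM in fasting kidney. For Fgg the lung libraries lie above it too, at 15.7 (fed) and 50 (fasting) counts per 100 Alb counts.

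Other acute phase proteins moved in both directions in liver, where 5 of 30 list genes at 1 CPM rose and 11 fell and 23.2% of all genes at 1 CPM were called. Serpina3n, a protease inhibitor, rose from 220 to 428 CPM, and Lbp, which binds bacterial lipopolysaccharide, from 68.9 to 125 CPM. Steap4, a metalloreductase, fell from 112 to 42.0 CPM, as did Saa4. The median of the list was -0.11, against -0.13 over all genes at 1 CPM. In white adipose 2 rose and 5 fell of 23, a share near the 29.1% of all genes at 1 CPM. The largest falls there were Orm3 and Steap4 (680 to 205 CPM). In brown adipose 3 of 20 were called, against 20.9% of all genes at 1 CPM. Steap4 (247 to 115 CPM) and Lrg1 (58.6 to 39.0 CPM), a leucine-rich plasma glycoprotein, fell, and Il1rn, the interleukin-1 receptor antagonist, rose (1.02 to 3.30 CPM). Of 12 negative acute phase genes in liver, the apolipoprotein Apoa4 rose from 50.7 to 2971 CPM and the retinol carrier Rbp4 from 1288 to 2008 CPM, whereas the corticosteroid carrier Serpina6 (138 to 31.6 CPM), Ttr (4518 to 2450 CPM) and Trf fell. Across tissues edgeR called 0 genes of either list. At an unadjusted p under 0.05 there were 8 of 32 and 2 of 12, and DESeq2 called 4 and 1.

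The interleukin-6 and glucocorticoid axes are both known inputs to these genes. The part of either axis in the changes described above was not tested. The lists of genes for both were chosen with earlier results of these data known. Il6 itself, the cytokine, had at most 18 counts in any library. Stat3 was called only in brown adipose (83.5 to 138 CPM, higher). Socs3, a STAT3 target that limits the signal, was lower in muscle (4.90 to 2.36 CPM), liver (9.42 to 6.45), white adipose (15.3 to 8.97), kidney (3.43 to 1.90) and lung (45.8 to 28.7) and higher in heart (5.98 to 16.1). Cebpd, a C/EBP factor, was called higher in all 8 tissues, from 3.17 to 17.5 CPM in liver and from 10.8 to 203 CPM in muscle. Its joint log2 fold change was 1.75 (SE 0.34, edgeR adjusted p = 0.0327). Cebpb was higher in muscle, liver (39.6 to 80.0 CPM), heart and kidney. Across tissues, 4 of 19 genes of this list were called, against 1.87% of all genes in the same fit, with Cebpd, the receptor Il6ra (1.13) and the NF-kappaB inhibitor Nfkbia (0.79) higher and the cytokine Il1b (-1.44) lower on the log2 scale.

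Of 16 genes of the glucocorticoid axis, 9 were called higher and 0 lower across tissues, against 1.03% and 0.84% of all genes. Their median log2 fold change was 1.02, against -0.01 over all genes tested. This list was chosen with earlier results of these data known, so the comparison is not independent of them. The largest changes were those of Pdk4, a kinase that limits glucose oxidation (3.05), and Ddit4, an inhibitor of mTORC1 (2.53). Which signal raised the genes of this list was not tested. Fkbp5, a chaperone of the glucocorticoid receptor and one of its targets, rose in all 8 tissues (joint log2 fold change 2.03, SE 0.30, edgeR adjusted p = 0.0117). Tsc22d3, another target, did so as well (1.30, SE 0.14, adjusted p = 3.32e-03 in edgeR). In spleen and kidney, where neither metallothionein was called, Fkbp5 went from 56.6 to 154 CPM and from 83.3 to 120 CPM. Tsc22d3 went from 199 to 430 CPM in spleen and from 36.8 to 104 CPM in kidney. The part of the glucocorticoid axis in the metallothionein changes was not tested. The receptor gene Nr3c1 was lower in liver (173 to 103 CPM), white adipose (383 to 234 CPM) and heart (169 to 117 CPM), and was not called elsewhere.

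Genes whose fasting changes over the 8 tissues were most like those of 4 of the genes were found by the Pearson correlation of log2 fold changes (pseudocount 1 CPM) among genes with at least 5 CPM in 1 library of every tissue. For Mt1 they were Atxn10 (r = 0.952), Adsl (0.947) and Ric8a (0.936), and for Mt2 Susd6 (0.955), Slc25a33 (0.934) and Pdpk1 (0.930). For Lcn2 they were Mipep (0.972), Dpysl2 (0.956) and Plxnb2 (0.956), and for Hp Dnlz (0.942), Bccip (0.933) and Nabp2 (0.930). These describe 8 points that share the fed and fasting pools, picked as the highest of 7944 (Mt1) or 7945 genes, and the genes found had log2 fold changes between -0.36 (Nabp2) and 0.89 (Susd6).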

How the data were processed

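Short-read RNA-Seq of 16 libraries was analysed, 1 for each of 8 tissues and 2 treatments, grouped by the sample labels. The authors sequenced strand-specific paired-end libraries, and, per the labels' processing notes, used fastp 0.23.2, FastQC 0.11.8, HISAT2 2.2.1.0 and featureCounts (Subread 2.0) on GRCm38. They deposited raw counts per gene and the gene length, an other value computed by their counting program. The strand setting, and whether reads or pairs were counted, are not given in the sources used here. The gene length joins all annotated exons, which lowers RPKM for genes with long alternative transcripts.

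Symbols were matched by identifier without version to GENCODE release 21 names (55144 of 55385 genes), while the authors used release 24. Counts were divided by library totals to give CPM. Within a tissue, genes with a count were compared by a two-sided Fisher's exact test, and across tissues with edgeR 4.0.16 (R 4.3.3; TMM, filterByExpr, quasi-likelihood test, tissue as a block). The difference between 1 tissue and the other 7 was an interaction term. P-values were adjusted over all genes tested (Benjamini-Hochberg), and called at 0.05. Other steps used Python 3.11.15, pandas 2.3.3, scipy 1.17.1 and numba 0.67.0. The tests were checked on simulated data. Intervals of a fold are exact binomial intervals on the 2 counts (95%).

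The 10 genes and the lists were chosen with earlier results of these data known. Text names the 10 genes; for each list, genes called across tissues (at most 6), or in liver, white or brown adipose with at least 10 CPM (2 rises and 2 falls a tissue); 11 upstream genes; the 2 highest of a marker list; and the 3 most similar genes for 4 of the genes. The epithelial lists, Lrp2, Fga and Fgg in kidney, and Alb outside liver were added after values were seen. Alternatives were a pseudocount of 1 CPM, 3 other scalings (DESeq2 1.42.0 among them), a 1 CPM filter, adjusted p, a log2 fold change above 1, an assumed coefficient of variation of 0.2 or 0.4, near copies summed, and, for the joint fit, DESeq2's Wald test, other filters and dispersions, no block and tissues left out.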

Additional observations from a re-analysis of the deposited data

Results flagged for a closer look

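The fasting effect on Lcn2 in white adipose stood apart from that in the other 7 tissues. The log2 difference was 3.13 (SE 0.53, edgeR interaction adjusted p = 4.33e-03), and it passed the test with total counts alone, with no filter and with robust dispersion too. White adipose has 1 library per treatment and no error of its own here, and the SE comes from the other 7 tissues. Of 12 epithelial genes, a list written after the values were seen, 10 were called in the same library pair, against 19.1% of all genes with a count. No other combination of the 10 genes and 8 tissues passed this test, whereas many genes outside the 10 did so in white adipose.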

How the results depend on the processing

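Within tissues, the 56 combinations with at least 10 counts kept their direction under each alternative, except Saa3 in white adipose, which was not called (log2 fold change 0.06, and -0.04 or -0.05 with the factors of edgeR or DESeq2). Leaving aside the log2 fold change above 1 and the assumed variation between pools, 7 calls changed: those of Fgb, Orm1 and Orm2 in liver, Mt2 and Orm1 in white adipose, Lcn2 in liver and Orm1 in kidney. At a log2 fold change above 1, called genes came to 5 in liver, 2 in white adipose, 1 in brown adipose and 0 in spleen. With an assumed coefficient of variation of 0.2 they came to 4 in liver, 2 in white adipose, 1 in lung and 0 in brown adipose and spleen. With 0.4, Mt1 and Mt2 in liver (2), Lcn2 in white adipose (1), Mt2 in heart (1) and Saa1 and Saa2 in kidney (2) were left, and 0 in muscle, brown adipose, spleen and lung. Only 3 kidney genes were called at 1 CPM.

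Across tissues, called genes ranged from 0 to 1 when a tissue was left out, and came to 0 without the tissue block, with robust dispersion (Mt1 adjusted p = 0.0555) or without both adipose tissues, and to 5 with DESeq2's Wald test. Without the block, calls were 0 for the interleukin-6 and glucocorticoid lists. Calls in the interleukin-6 list were 8 with DESeq2, 2 without both adipose tissues and 1 to 5 with a tissue left out, and those in the glucocorticoid list were 5 to 10 with a tissue left out. The other positive acute phase genes had 1 with total counts alone, 1 with a filter on the treatment groups (chosen after seeing the data), 0 to 1 with a tissue left out and 4 with DESeq2, and the negative ones 1 with DESeq2. The cause was not tested. By TPM, 9 of 10 genes had the same highest library. The joint fit sets fed and fasting libraries of a tissue against each other through the tissue block. Beyond this block, no paired analysis was possible because each tissue and treatment has 1 library, with no replicate numbers. Within tissues, the metal list had 3 calls in liver with the factors of edgeR or DESeq2, and over all lists, fits and alternatives, 127 counts moved by over 1.5 times and 308 did not. Depth limits Saa1, Saa2 and Orm2 outside liver.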
